A study of Mus musculus with 9 samples.

Results

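The genes described here are 31 genes of cholesterol synthesis and sterol regulation. They are the rows of the deposited gene table whose gene name is on a list of enzymes of the mevalonate and sterol steps, SREBP and LXR regulators, and genes of cholesterol transport, storage and efflux. The list was chosen with earlier results of these data known. Its shares, set beside those of all genes, are therefore descriptions and not tests. The table holds 55401 genes, 14570 of them reached the minimum FPKM of 1 (fragments per kilobase, scaled to the library total) in 3 or more libraries, and all 31 of the listed genes were among these. RNA was sequenced from 9 libraries of mouse testis, 3 per group, and every mouse in the series had been given busulfan, an alkylating drug that removes germ cells. BdE mice (replicates 5, 6 and 7) then received blood exosomes of donor mice with an imbalanced intestinal microbiota. BE mice (replicates 6, 7 and 8) received blood exosomes of wild-type donors, and BP mice (replicates 5, 6 and 7) received PBS. Exosomes are small membrane vesicles released by cells. Strain, age, busulfan and exosome doses and the time of sampling are not in the labels. There is no group without busulfan, so all levels are those of a busulfan-treated testis, and the extent of germ cell loss cannot be measured here. No label states that the replicates were different animals, so p-values measure the spread between these libraries, which may be technical.

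Cholesterol is built from acetyl-CoA through mevalonate, isoprenoid diphosphates, squalene and lanosterol. When sterol in the endoplasmic reticulum is low, SCAP carries the SREBP transcription factors to the Golgi for cleavage and they switch on the enzyme genes, and when sterol is high, INSIG proteins hold SCAP back. LXR receptors answer to oxidised sterols and switch on efflux transporters, and in the testis cholesterol is also the substrate from which Leydig cells make testosterone.

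Total counts per library lay between 57923652 and 70103125, and the counts of the 31 genes lay between 60 (Stard4 in BE 8) and 34889 (Abca1 in BP 5). One library stands apart from its label group. Mitochondrial transcripts took 11.8 to 13.4% of the counts in the BdE libraries, against 7.10 to 8.01% in the BP libraries. Among the BE libraries their share was 7.19% for replicate 6, 14.5% for replicate 7 and 14.2% for replicate 8. The rank correlation across genes between gene length and a library's deviation from the mean of all libraries was 0.23 in BE 6, between 0.17 and 0.25 in the BP libraries and between -0.24 and -0.09 in all other libraries. Results that rest on BE 6 are therefore given with and without it. The 8 Sertoli cell markers summed to between 11330 and 12700 CPM (counts scaled to a common library total, with TMM factors) in every library and the 8 Leydig cell markers to between 7015 and 11090 CPM. The 5 photoreceptor genes, included because the extraction text names retinas, summed to at most 1.61 CPM, and 0 of them passed the filter on low values.

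Levels of different genes were compared per length, as the deposited FPKM. In BP testis Hmgcs1 was the highest of the 31 genes at 61.5 ± 6.87 FPKM (mean ± SD, n = 3 for all such values). It was followed by Ebp at 50.1 ± 3.14 FPKM, Abca1 at 43.9 ± 6.63 FPKM and Soat1 at 39.6 ± 2.90 FPKM. Ebp and Soat1 were each within 1 SD of Abca1, while Hmgcs1 was above Ebp by more than either SD. The lowest levels were those of Lipe at 3.47 ± 0.38 FPKM, Nr1h3 at 3.52 ± 0.10 FPKM and Stard4 at 3.86 ± 0.55 FPKM, whose spreads overlapped. Among the enzymes, Hmgcs1 and Ebp were thus far above Hsd17b7 (5.03 ± 0.93 FPKM) and Lss (5.84 ± 1.07 FPKM).

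Most of the 31 genes were lower in BdE and BE testis than in BP testis. The fit of all 9 libraries with edgeR's quasi-likelihood test placed 0 of them past an adjusted p of 0.05 in any of the 3 comparisons. In BdE against BP the log2 fold change was negative for 28 of the 31 genes, where 48.8% of all genes tested were negative, and the median was -0.48 against 0.01 over all genes. At an unadjusted p under 0.05, 10 of the 31 (32.3%) were lower and 0 higher, where 12.2% of all genes tested were lower and 11.9% higher. DESeq2 also put 0 of the 31 past the threshold (2.64% of all genes tested). With limma on log2(FPKM+1) 0 passed as well, in a fit that called very few genes of the whole table (number in the last section). Over the whole table the 9-library fit called 1 gene (0.00686%) in this comparison. In 16 of the 31 genes (51.6%) every BdE library lay below every BP library, where 22.8% of all genes tested did so. Nr1h2 was the 1 gene with every BdE library above every BP library, where 21.2% of all genes did so. Because RNA was taken from whole tissue, fewer cells of a type and less RNA per cell cannot be told apart in any of these values.

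The 9-library fit shares 1 estimate of spread over the groups, and which group spread most differed between genes. The SD of Sqle was 7.98 CPM in BdE and 37.2 CPM in BE, against 4.17 CPM in BP. That of Msmo1 was 22.7 CPM in BdE and 8.20 CPM in BE, against 6.38 CPM in BP. The part of these spreads in the number of calls was not tested. In the fit of the 6 BdE and BP libraries alone, 9 of the 31 genes (29.0%) fell in BdE and 0 rose, where 11.9% of all genes tested fell and 9.2% rose. The 9 were Hmgcs1, Idi1, Sqle, Cyp51, Sc5d, Srebf1, Srebf2, Scap and Soat1. By role they were 2 of 8 genes of the mevalonate steps, 3 of 11 of the sterol branch, 3 of 5 of SREBP control, 1 of 3 of transport and storage and 0 of 4 of the LXR and efflux genes. The count rests on few libraries. It was 5 without BdE 5 (10.7% of all genes tested fell in that fit) and 19 without BdE 6 (12.7% of all genes). It was 3 without BdE 7 (4.99%), BP 5 (5.63%), BP 6 (3.54%) or BP 7 (4.47%). It was 6 when a correction for gene length was added (Hmgcs1, Idi1, Sqle, Cyp51, Sc5d and Scap), where 9.65% of all genes tested fell. Idi1, Sqle and Scap were past the threshold in each of these fits.

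**Figure D1:**
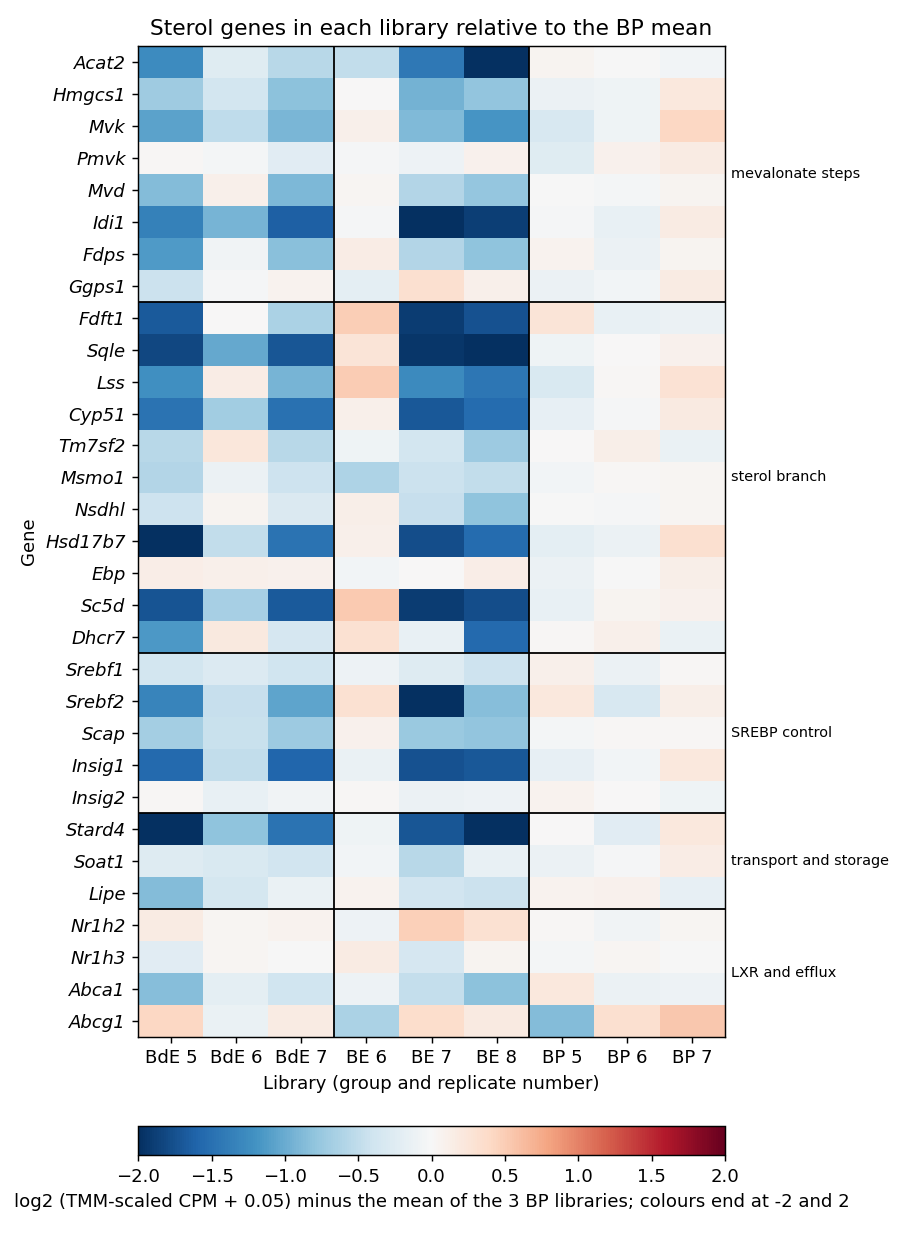
Each row is a gene, ordered by role, and each column a library. Colour gives log2 (TMM-scaled CPM + 0.05) minus the mean of the 3 BP libraries, with blue below and red above it. BdE 5, BdE 7, BE 7 and BE 8 are blue over most enzyme rows, BdE 6 is paler, and BE 6 looks like the BP columns.

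The early enzymes make isoprenoid diphosphates from acetyl-CoA. Acat2 and Hmgcs1 join acetyl-CoA units into HMG-CoA, Mvk, Pmvk and Mvd phosphorylate and decarboxylate mevalonate, Idi1 isomerises the resulting isopentenyl diphosphate, Fdps makes farnesyl diphosphate, and Ggps1 makes the geranylgeranyl diphosphate used to prenylate proteins. Hmgcs1, HMG-CoA synthase, had 190, 241 and 177 CPM in BdE 5, 6 and 7 and 313, 162 and 181 CPM in BE 6, 7 and 8, against 286, 294 and 360 CPM in BP 5, 6 and 7. All BdE libraries lay below all BP libraries, and BE 6 lay inside the BP range. Its log2 fold change in BdE against BP was -0.63 (SE 0.15, adjusted p = 0.032 in the 6-library fit; SE 0.25, adjusted p = 0.19 in the 9-library fit).

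The promoter of Hmgcs1 is shown because, of the 8 genes called in the 6-library fit that have a promoter window (all but Sqle), it was the 1 with the sterol element searched for. It lies at chr13:119690101-119690400 of GRCm38.p6 (plus strand, from RefSeq), from 250 bases before to 50 bases after the annotated start. Capitals mark 1 sterol regulatory element (TCACNCCAC, N any base), which ends 128 bases before the start site, and 4 NF-Y boxes (ATTGG).
Hmgcs1: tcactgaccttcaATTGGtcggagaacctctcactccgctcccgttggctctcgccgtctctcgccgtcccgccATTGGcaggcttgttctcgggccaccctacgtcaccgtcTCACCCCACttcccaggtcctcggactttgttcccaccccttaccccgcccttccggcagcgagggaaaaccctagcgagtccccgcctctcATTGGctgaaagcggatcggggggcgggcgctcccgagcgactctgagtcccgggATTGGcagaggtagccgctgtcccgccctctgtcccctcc

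Idi1 had 21.7, 29.0 and 17.9 CPM in BdE and 54.5, 11.9 and 15.0 CPM in BE, against 54.7, 49.9 and 62.5 CPM in BP. Every BdE library was well below every BP library, while BE 6 stood beside BP and BE 7 and BE 8 below BdE. In BdE against BP the log2 fold change was -1.28 (SE 0.19, adjusted p = 0.011 in the 6-library fit; adjusted p = 0.20 in the 9-library fit). Mvk, mevalonate kinase, had 9.35, 13.9 and 10.4 CPM in BdE and 21.2, 10.7 and 8.66 CPM in BE, against 15.7, 18.6 and 26.1 CPM in BP. The BdE and BP libraries did not overlap, but its log2 fold change of -0.84 (SE 0.24) missed the threshold in the 6-library fit (adjusted p = 0.052). Fdps had 44.0, 91.7 and 54.0 CPM in BdE and 107, 63.7 and 55.2 CPM in BE, against 101, 88.3 and 99.6 CPM in BP. BdE 6 lay inside the BP range, and the log2 fold change of -0.61 (SE 0.27) did not pass (adjusted p = 0.15 in the 6-library fit).

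Acat2 did not pass in BdE (adjusted p = 0.11 in the 6-library fit) and spread widely among the BE libraries, with 33.8, 67.9 and 54.7 CPM in BdE and 57.6, 30.0 and 12.4 CPM in BE, against 84.0, 79.9 and 78.0 CPM in BP. No BdE or BE library reached the lowest BP library. Acat3, a near-identical copy, had 1520 to 2352 counts per library, so reads of the pair may have been split and the level of Acat2 is uncertain. Mvd averaged 15.3 ± 6.50 CPM in BdE and 16.2 ± 5.03 CPM in BE, against 21.3 ± 0.75 CPM in BP. Pmvk and Ggps1 stayed closest to BP among the early enzymes. Pmvk averaged 20.5 ± 1.82 CPM in BdE and 21.4 ± 1.41 CPM in BE, against 21.8 ± 3.15 CPM in BP, and Ggps1 averaged 45.6 ± 7.91 CPM in BdE and 52.5 ± 9.33 CPM in BE, against 49.5 ± 5.26 CPM in BP. Ggps1 overlaps Arid4b on the other strand, and since no source used here says how strands were counted, reads of that pair cannot be told apart.

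The sterol branch starts with Fdft1, squalene synthase, and Sqle, squalene epoxidase, which acts before Lss closes the sterol rings to lanosterol. Sqle had 19.4, 33.9 and 20.9 CPM in BdE and 82.1, 17.9 and 17.2 CPM in BE, against 64.6, 69.5 and 72.9 CPM in BP. The BdE libraries were all below BP, and the BE libraries split, with BE 6 above every BP library. In BdE against BP Sqle had the lowest log2 fold change of the called genes, -1.48 (SE 0.22, adjusted p = 0.011 in the 6-library fit; SE 0.58, adjusted p = 0.19 in the 9-library fit). Fdft1 and Lss varied more within the groups. Fdft1 averaged 51.1 ± 27.1 CPM in BdE and 51.5 ± 50.6 CPM in BE, against 79.0 ± 12.8 CPM in BP. Lss averaged 47.2 ± 25.3 CPM in BdE and 50.7 ± 41.3 CPM in BE, against 70.01 ± 14.1 CPM in BP. Fdft1 overlaps the abundant gene Ctsb on the other strand (32543 to 69412 counts per library), so its level is uncertain.

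Cyp51, lanosterol demethylase, had 53.9, 92.6 and 53.2 CPM in BdE and 160, 46.3 and 51.6 CPM in BE, against 134, 148 and 170 CPM in BP. BdE lay wholly below BP, with BdE 6 the nearest to it. For BdE against BP this gave a log2 fold change of -1.18 (SE 0.24, adjusted p = 0.022 in the 6-library fit). Cyp51 overlaps Akap9 on the other strand, whose own level lay between 80.1 and 97.7 CPM in BdE and between 82.7 and 88.9 CPM in BP. Sc5d, lathosterol oxidase, had 31.3, 65.6 and 32.4 CPM in BdE and 149, 27.6 and 30.1 CPM in BE, against 93.2, 108 and 110 CPM in BP. Its groups BdE and BP did not overlap and BE 6 was the highest of all 9 libraries. Against BP its log2 fold change in BdE was -1.27 (SE 0.30, adjusted p = 0.033 in the 6-library fit).

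Msmo1, the oxidase that removes methyl groups from the sterol ring, had 116, 161 and 131 CPM in BdE and 113, 129 and 123 CPM in BE, against 167, 177 and 178 CPM in BP. Here BE 6 did not resemble BP, and both exosome groups lay wholly below it. The log2 fold change was -0.36 (SE 0.12, adjusted p = 0.085 in the 6-library fit) in BdE against BP and -0.52 (SE 0.12, adjusted p = 0.38 in the 9-library fit) in BE against BP, past the threshold in neither. Hsd17b7, the ketoreductase of the same demethylation complex, had 5.69, 19.9 and 10.1 CPM in BdE and 30.2, 8.16 and 9.63 CPM in BE, against 24.5, 25.8 and 35.2 CPM in BP. BdE 6 came near BP without reaching it, and the log2 fold change of -1.26 (SE 0.45) did not pass (adjusted p = 0.094 in the 6-library fit).

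Nsdhl, a dehydrogenase of that complex, averaged 75.2 ± 13.2 CPM in BdE and 68.7 ± 22.8 CPM in BE, against 86.5 ± 2.28 CPM in BP. Dhcr7, which reduces the last double bond to give cholesterol, averaged 112 ± 48.4 CPM in BdE and 116 ± 63.8 CPM in BE, against 141 ± 11.2 CPM in BP. Tm7sf2, a sterol reductase, averaged 25.7 ± 8.68 CPM in BdE and 23.6 ± 5.16 CPM in BE, against 30.5 ± 2.63 CPM in BP, and it overlaps Vps51 on the same strand. None of these 3 passed the threshold in BdE. Ebp, the sterol isomerase, was the 1 gene of the branch with a positive log2 fold change in BdE against BP, 0.10 (SE 0.07, adjusted p = 0.35 in the 6-library fit). Its level was 138 ± 1.95 CPM in BdE and 131 ± 8.70 CPM in BE, against 128 ± 10.5 CPM in BP.

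**Figure D2:**
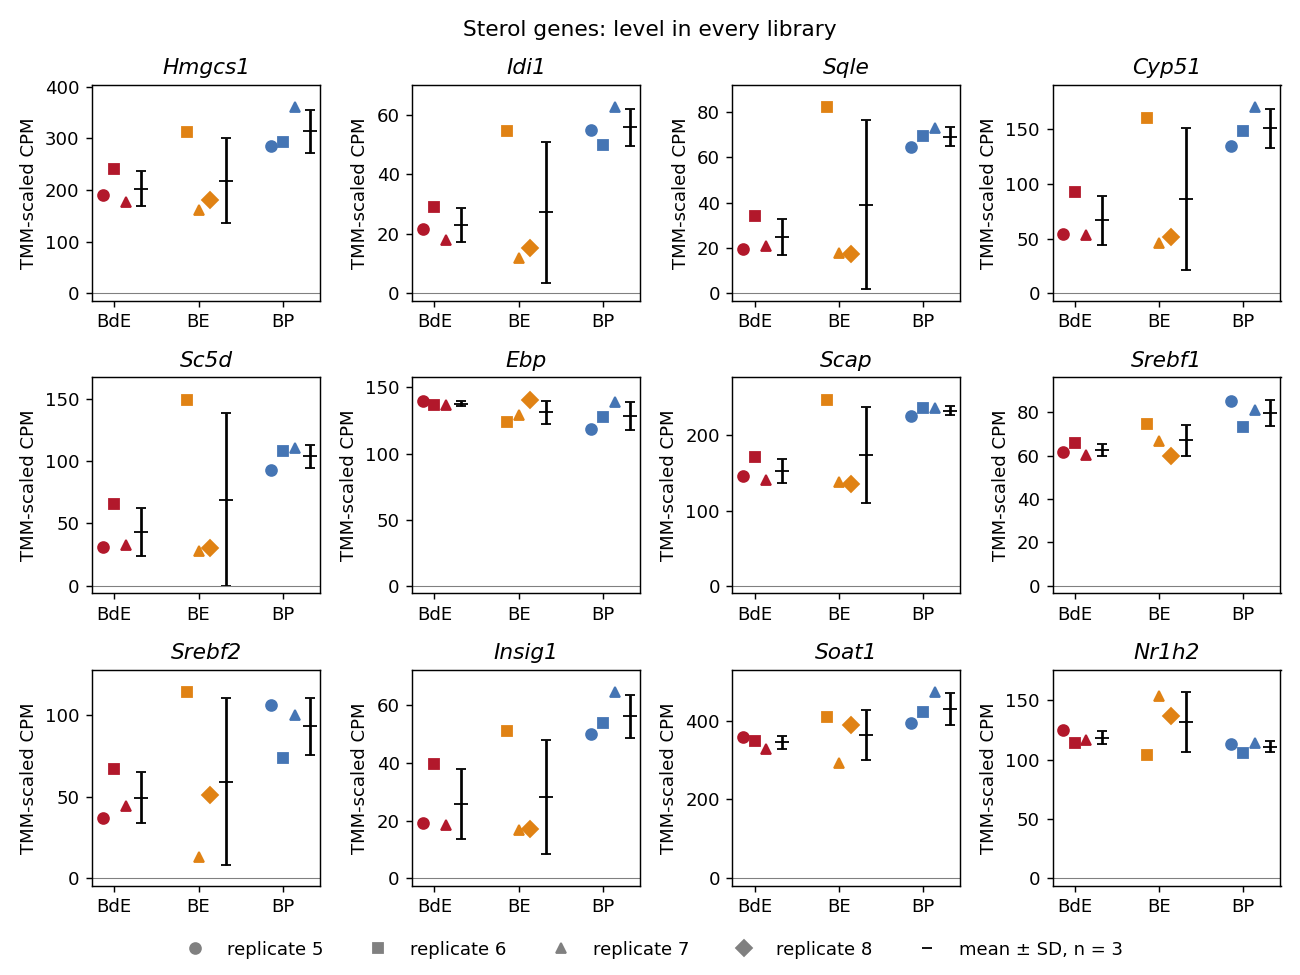
TMM-scaled CPM of 12 of the genes in every library, with BdE in red, BE in orange and BP in blue. Symbols mark the replicate number and black bars the mean ± SD (n = 3); the y axes include 0. For Idi1, Cyp51 and Insig1 the BE group splits into BE 6 within the BP range and BE 7 and BE 8 below every BdE library, and for Sqle and Sc5d BE 6 lies above every BP library, whereas Ebp differs little between groups.

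Among the genes that control SREBP, Scap, the sterol-sensing escort protein, had 146, 171 and 141 CPM in BdE and 248, 139 and 135 CPM in BE, against 226, 237 and 236 CPM in BP. All BdE libraries were below all BP libraries, BE 7 and BE 8 lower still, and BE 6 above BP. Its log2 fold change in BdE against BP was -0.61 (SE 0.08, adjusted p = 0.0098 in the 6-library fit; SE 0.22, adjusted p = 0.19 in the 9-library fit). Srebf2, whose protein mainly drives cholesterol synthesis genes, had 36.7, 66.6 and 44.3 CPM in BdE and 114, 13.0 and 50.6 CPM in BE, against 106, 73.3 and 99.8 CPM in BP. BdE 6 and BP 6 were close to each other, although the groups did not overlap. In BdE against BP it changed by -0.92 on the log2 scale (SE 0.25, adjusted p = 0.048 in the 6-library fit; SE 0.62, adjusted p = 0.36 in the 9-library fit).

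Srebf1, whose protein also serves fatty acid synthesis, had 61.8, 65.9 and 60.5 CPM in BdE and 74.5, 66.7 and 59.9 CPM in BE, against 85.0, 73.2 and 81.1 CPM in BP. The BdE libraries were tightly grouped below BP. The log2 fold change was smaller than that of Srebf2, at -0.35 (SE 0.08, adjusted p = 0.031 in the 6-library fit). Srebf1 overlaps Rai1 on the other strand, which had 1291 to 2613 counts per library. The ratio of Srebf2 to Srebf1 in FPKM was 0.466, 0.794 and 0.575 in BdE and 1.20, 0.153 and 0.663 in BE, against 0.977, 0.786 and 0.965 in BP, with BdE 6 inside the BP range.

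The INSIG genes differed in their values, which were not tested against each other. Insig1, itself a gene that SREBP switches on, had 19.0, 39.6 and 18.5 CPM in BdE and 51.1, 16.6 and 17.1 CPM in BE, against 49.95, 54.0 and 64.5 CPM in BP. BdE 5 and BdE 7 stood far below BP, BdE 6 between, and the log2 fold change of -1.12 (SE 0.32) missed the threshold in the 6-library fit (adjusted p = 0.053). Insig2, the second retention protein, had 65.3, 57.8 and 61.5 CPM in BdE and 65.5, 59.6 and 59.9 CPM in BE, against 67.6, 64.7 and 60.7 CPM in BP, with overlapping groups and a log2 fold change of -0.06 (SE 0.08, adjusted p = 0.59). The FPKM ratio of Insig1 to Insig2 was 0.327, 0.771 and 0.338 in BdE and 0.876, 0.312 and 0.321 in BE, against 0.831, 0.937 and 1.19 in BP. Only the BdE libraries lay wholly below BP in this ratio, since BE 6 lay within the BP range. The ratio was not tested.

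For transport and storage, Soat1, the enzyme that esterifies cholesterol for lipid droplets, had 360, 348 and 327 CPM in BdE and 411, 292 and 388 CPM in BE, against 394, 423 and 472 CPM in BP. BdE lay below BP without overlap, and BE 6 lay within the BP range. Soat1 had a log2 fold change of -0.32 in BdE against BP (SE 0.08, adjusted p = 0.045 in the 6-library fit; adjusted p = 0.20 in the 9-library fit). Lipe, the hormone-sensitive lipase that frees cholesterol from its esters, had 12.4, 17.6 and 20.6 CPM in BdE and 23.8, 17.3 and 16.8 CPM in BE, against 23.8, 23.9 and 20.1 CPM in BP. The groups overlapped and the log2 fold change of -0.42 (SE 0.20) did not pass (adjusted p = 0.17 in the 6-library fit). Stard4, a cytosolic sterol carrier, had 3.61, 13.6 and 8.50 CPM in BdE and 22.5, 7.23 and 0.92 CPM in BE, against 23.9, 20.3 and 27.6 CPM in BP. Its log2 fold change in BdE of -1.48 (SE 0.45) was as low as that of Sqle but varied more, and it missed the threshold (adjusted p = 0.064 in the 6-library fit).

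Among the LXR and efflux genes, Nr1h2, which encodes LXR beta, had 124, 114 and 116 CPM in BdE and 104, 154 and 137 CPM in BE, against 113, 106 and 114 CPM in BP. BdE stood just above BP, and BE 7 and BE 8 were the highest libraries. The log2 fold change in BdE against BP was 0.10 (SE 0.06, adjusted p = 0.32 in the 6-library fit). Nr1h3, which encodes LXR alpha, averaged 9.47 ± 0.945 CPM in BdE and 9.69 ± 1.65 CPM in BE, against 9.87 ± 0.289 CPM in BP. In FPKM it was at most 0.141 times Nr1h2 in any library. Abca1, an efflux transporter that LXR switches on, had 278, 438 and 381 CPM in BdE and 466, 358 and 283 CPM in BE, against 580, 462 and 466 CPM in BP. Every BdE library was below every BP library, but the log2 fold change of -0.46 (SE 0.18) did not pass (adjusted p = 0.12 in the 6-library fit). Abcg1, the partner transporter, overlapped across all groups, with 37.8 ± 6.94 CPM in BdE and 34.2 ± 11.2 CPM in BE, against 36.5 ± 16.1 CPM in BP.

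In BE against BP the log2 fold change was also negative for 28 of the 31 genes (49.7% of all genes tested were negative), with a median of -0.42 against 0.00 over all genes. With edgeR 0 of the 31 passed in the 9-library fit and 0 in the fit of the 6 BE and BP libraries. That 6-library fit called 0 of all 14570 genes tested, so its count says nothing particular about the 31. At an unadjusted p under 0.05, 3 (9.68%) were lower in the 9-library fit, where 5.02% of all genes tested were lower. DESeq2 put 0 of the 31 past the threshold (0.426% of all genes tested). Over the whole table the 9-library fit called 2 genes (0.0137%). Acat2 and Msmo1 were the 2 genes (6.45%) with all BE libraries below all BP libraries, where 7.31% of all genes did so. BdE and BE were compared with the same BP libraries, so the 2 sets of fold changes are not independent of each other.

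Leaving out BE 6 changed this comparison. BE 6 was the highest of the BE libraries in 25 of the 31 genes, where it was the highest in 42.2% of all genes tested. It lay within the BP range for 17 genes, above it for 10 and below it for 4. The shares of all genes tested in these positions were not counted, so these values describe the 31 genes only. Without BE 6, 15 of the 31 genes (48.4%) fell in BE against BP, where 16.2% of all genes tested fell, and Nr1h2 rose, where 13.7% rose. The 15 were 4 of the mevalonate steps (Acat2, Hmgcs1, Mvk and Idi1), 8 of the sterol branch (Fdft1, Sqle, Lss, Cyp51, Msmo1, Nsdhl, Hsd17b7 and Sc5d) and 3 of SREBP control (Srebf1, Scap and Insig1). The median log2 fold change over the 31 genes was then -0.69. Examples in that fit were Idi1 at -2.05 (SE 0.23, adjusted p = 0.0024), Sqle at -1.98 (SE 0.25, adjusted p = 0.0028), Scap at -0.77 (SE 0.09, adjusted p = 0.0026) and Nr1h2 at 0.39 (SE 0.08, adjusted p = 0.010). In 25 of the 31 genes (80.6%) BE 7 and BE 8 were both below every BP library, where 31.5% of all genes were. BE 6 was singled out after its values were seen, and these p-values do not allow for that. In the same fit 9 of the 31 fell in BdE against BP (12.1% of all genes fell): Hmgcs1, Mvk, Idi1, Sqle, Cyp51, Sc5d, Srebf1, Scap and Insig1.

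**Figure D3:**
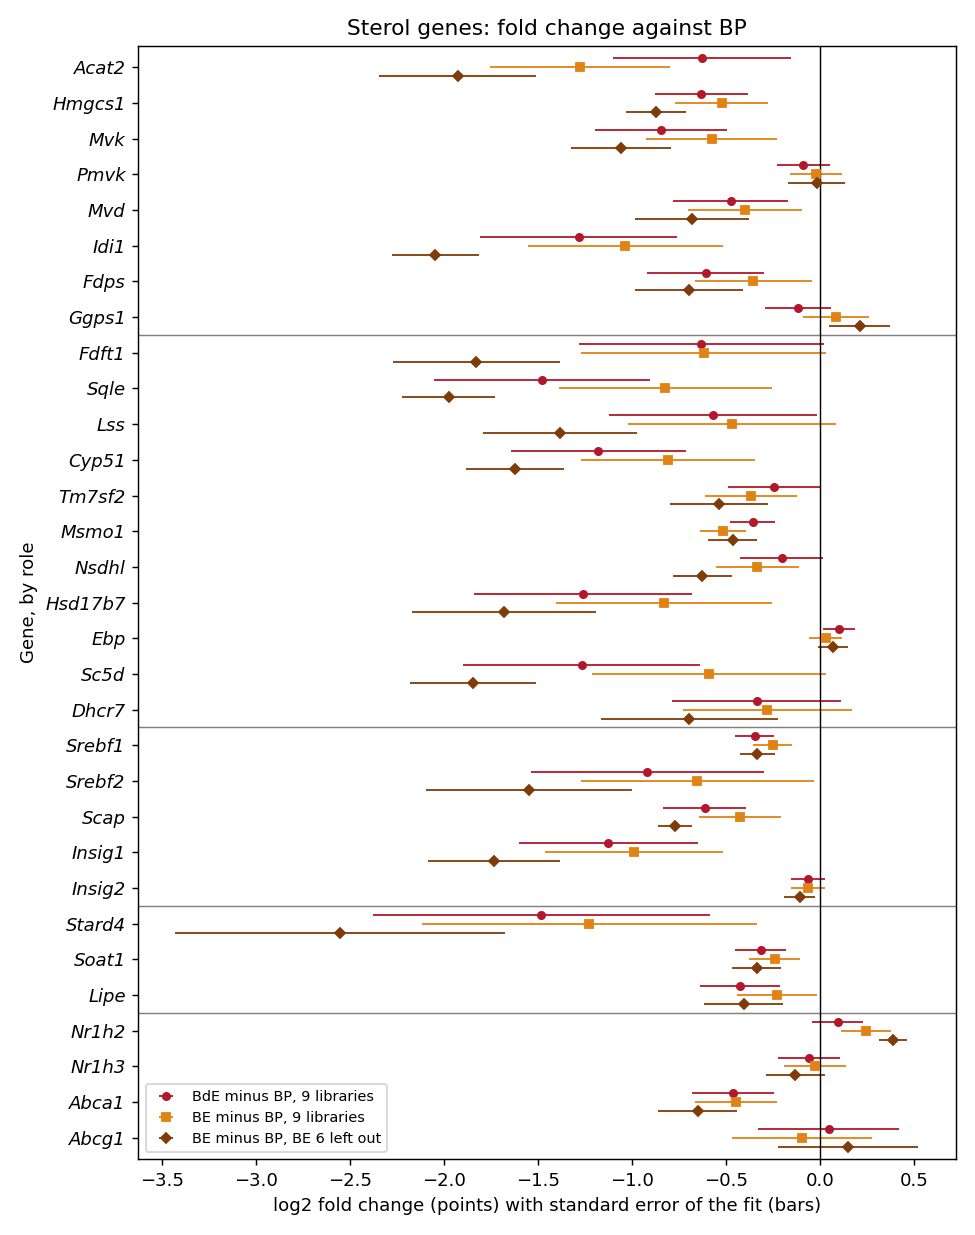
Log2 fold changes against BP (points) with the SE of the fit (bars) for the 31 genes by role: BdE in the 9-library fit (red), BE in the 9-library fit (orange), and BE with BE 6 left out (brown). Most points lie left of 0. Without BE 6 Stard4 lies lowest, at -2.55, and the values of Idi1, Sqle, Fdft1, Sc5d and Acat2 lie near -2. Pmvk, Ebp, Insig2 and Nr1h3 stay near 0 and Nr1h2 lies above it.

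BdE and BE, the exosome groups, were not separated at these genes in the fit of all 9 libraries. Between them 0 of the 31 passed in the 9-library edgeR fit, where 1 gene of the whole table was called (0.00686%). At an unadjusted p under 0.05 in that fit, 0 were lower and 0 higher, where 1.13% of all genes were lower and 1.21% higher. DESeq2 put 0 of the 31 past the threshold (0.178% of all genes). The log2 fold change was negative for 25 of the 31 genes (51.2% of all genes), with a median of -0.10. Without BE 6 the median turned to 0.22, 25 genes were positive, and 0 passed an adjusted p of 0.05 (0.0343% of all genes). No gene had all BdE libraries below or above all BE libraries, where 2.26% of all genes were lower and 2.86% higher in this way. With BE 6 left out, Ggps1 and Nr1h2 were lower without overlap (10.6% of all genes) and 10 genes were higher (11.9% of all genes): Acat2, Idi1, Fdft1, Sqle, Lss, Cyp51, Nsdhl, Sc5d, Scap and Insig1.

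Within a group, the same library tended to be the highest across the 31 genes. BdE 6 was the highest of the BdE libraries in 23 of them, where it was the highest in 36.2% of all genes tested. The median over the 31 genes of the log2 level relative to the BP mean was -0.86, -0.19 and -0.56 in BdE 5, 6 and 7 and 0.03, -0.58 and -0.80 in BE 6, 7 and 8, against -0.04, -0.02 and 0.08 in BP 5, 6 and 7. BdE 6 was thus the BdE library closest to BP, and BE 6 was level with BP.

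Marker lists of testis cell types were set beside these values, and they differed in how they followed the sterol genes from library to library. The median of the 8 Leydig cell markers was -1.11, -0.52 and -1.05 in BdE and 0.22, -1.39 and -0.87 in BE, against -0.04, 0.04 and 0.05 in BP. The 8 macrophage markers had medians of -0.95, -0.61 and -1.25 in BdE and 0.08, -1.50 and -0.98 in BE, against -0.04, 0.00 and 0.02 in BP. In both lists, as in the sterol genes, BdE 6 was the nearest of the BdE libraries to BP and BE 6 lay apart from BE 7 and BE 8. The 5 peritubular myoid markers had medians of -0.36, -0.53 and -0.68 in BdE, so that BdE 6 was not the nearest to BP, and -0.16, -0.87 and -0.77 in BE, against -0.08, -0.02 and 0.07 in BP. The 8 Sertoli markers lay between -0.02 and 0.28 in BdE and between -0.05 and 0.11 in BE, against -0.09 to 0.11 in BP. The 5 germ cell markers tested, of 8, did not follow the sterol genes, with medians of 0.30, 0.81 and 0.10 in BdE and 0.85, 0.85 and -0.49 in BE, against 0.90, 0.05 and -1.44 in BP.

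The 9-library fit put 0 markers of these 5 lists past the threshold in BdE against BP. In the 6-library fit, where 11.9% of all genes tested fell and 9.2% rose, 4 of the 8 Leydig markers fell, Star, Hsd3b1, Cyp17a1 and Lhcgr, and 0 rose. Star, which carries cholesterol into the mitochondria, had a log2 fold change of -1.09 (SE 0.22, adjusted p = 0.021). Leydig markers did not all go the same way. Insl3, a Leydig cell hormone, had 6012, 6925 and 6497 CPM in BdE and 5323, 5193 and 5278 CPM in BE, against 5089, 5525 and 5035 CPM in BP. Every BdE library was above every BP library, with a log2 fold change of 0.31 (adjusted p = 0.071 in the 6-library fit, 0.19 in the 9-library fit, 0.045 without BE 6 and 0.024 with DESeq2). Nr5a1, a transcription factor of steroidogenic cells, had a log2 fold change of 0.02 (adjusted p = 0.86 in the 6-library fit). Insl3 made up most of the summed Leydig level, which was 8252 to 10450 CPM in BdE and 7015 to 11090 CPM in BE, against 9853 to 10750 CPM in BP. Without Insl3 the sum was 2240 to 3528 CPM in BdE and 1821 to 5763 CPM in BE, against 4764 to 5227 CPM in BP.

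In the same fit 6 of the 8 macrophage markers fell and 0 rose, and their sum was 427 to 569 CPM in BdE and 344 to 878 CPM in BE, against 838 to 893 CPM in BP. Of the 5 peritubular myoid markers 2 fell, and their sum was 471 to 603 CPM in BdE and 414 to 661 CPM in BE, against 691 to 775 CPM in BP. Of the 8 Sertoli markers 0 fell and 2 rose, Rhox5 and Cldn11, with sums of 11620 to 12700 CPM in BdE and 11580 to 12390 CPM in BE, against 11330 to 12130 CPM in BP. Of the germ cell markers 1 fell, Zbtb16, and 0 rose; their sum was 58.1 to 63.9 CPM in BdE and 42.3 to 88.6 CPM in BE, against 45.1 to 89.3 CPM in BP. No marker of these 5 lists was at 0 counts in a whole group. The part of cell makeup, and of the mitochondrial share and the length trend given above, in the values of the sterol genes was not tested, apart from the fit corrected for length. The 31 genes had a median length of 5227 bases, against 4126 bases over all genes tested.

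**Figure D4:**
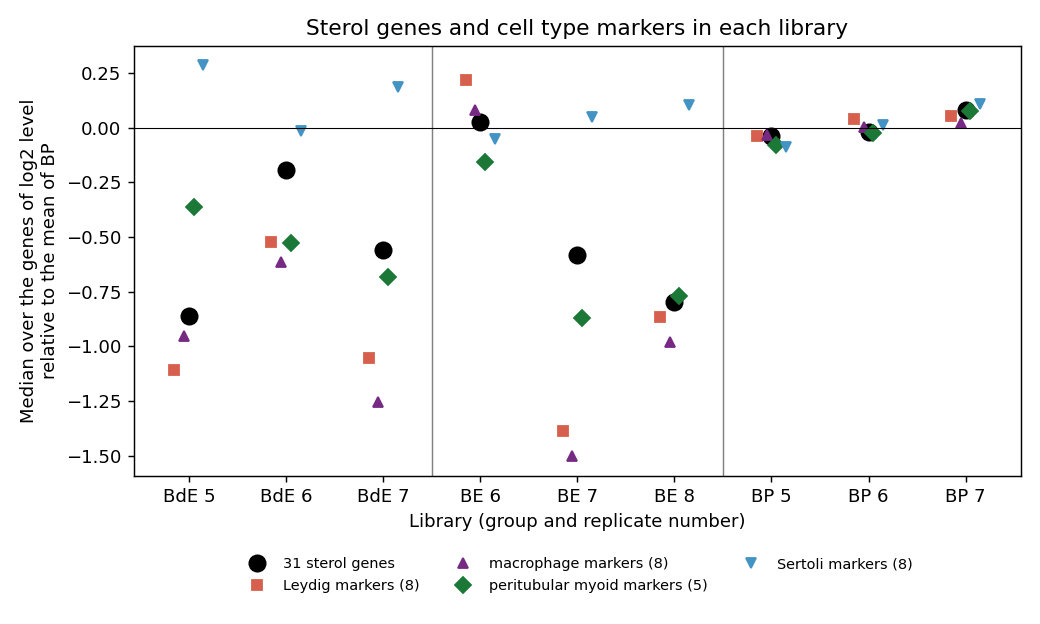
For each library, the median over a gene list of the log2 level relative to the mean of the BP libraries: the 31 sterol genes (black), Leydig (8), macrophage (8), peritubular myoid (5) and Sertoli (8) markers. Sterol, Leydig and macrophage medians are low in BdE 5, BdE 7, BE 7 and BE 8, nearer to 0 in BdE 6, and at or above 0 in BE 6; the Sertoli medians lie between -0.09 and 0.28.

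A further list held 28 genes of sterol uptake, egress, SREBP cleavage and acetyl-CoA supply that are not among the 31, and 23 of them were tested. In the 6-library fit of BdE and BP 9 of the 23 fell and 0 rose, where 11.9% of all genes tested fell and 9.2% rose. In the 9-library fit 0 passed, and 9 were lower at an unadjusted p under 0.05, where 12.2% of all genes were. Negative log2 fold changes were found for 21 of the 23 (48.8% of all genes), with a median of -0.41. Acly, which makes cytosolic acetyl-CoA from citrate, had 271, 297 and 269 CPM in BdE and 482, 252 and 285 CPM in BE, against 421, 449 and 499.9 CPM in BP. Its groups BdE and BP were far apart, with a log2 fold change of -0.71 (SE 0.08, adjusted p = 0.0076 in the 6-library fit). The proteases that cleave SREBP in the Golgi fell too in that fit, Mbtps1 by 0.58 on the log2 scale (adjusted p = 0.010) and Mbtps2 by 0.42 (adjusted p = 0.038). Lpcat3, a phospholipid acyltransferase that LXR switches on, fell by 0.99 (adjusted p = 0.015) and Nceh1, a cholesterol ester hydrolase, by 0.95 (adjusted p = 0.027). Osbp, an oxysterol binding protein, fell by 0.37 (adjusted p = 0.026).

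Promoter windows, each from 250 bases before to 50 bases after a RefSeq start, were found for 26 of the 31 genes. The sterol element TCACNCCAC, searched on both strands, was in 1 of the 26, Hmgcs1, against 1.44% of all 27025 genes with a window. The NF-Y box ATTGG, also searched on both strands, was in 20 of the 26 genes, against 41.1% of all genes. Some genes have several windows, and counted per window it was in 21 of 36, against 37.4% of all windows. Both in 1 window were found in Hmgcs1 and in 0.529% of all genes. The motifs do not overlap each other in the Hmgcs1 window shown above. A match is a run of letters, and the absence of one says nothing about binding of either factor.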

How the data were processed

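RNA-seq of 9 mouse testis libraries (3 per group) was analysed from 1 deposited gene table. Its counts, whole numbers of reads per gene, and its FPKM values, scaled by gene length and library total, were made by the authors, per the file headers. The submitters' processing notes name Bowtie 0.12.2 and the build mm8 without their roles. Gene starts and ends in the table are identical to those of a GENCODE annotation of GRCm38 for 28 of the 31 genes. Those of Tm7sf2, Scap and Nr1h2 are not identical, which need not mean another build. Counting program and strand setting: not given in the sources used here. No row lacked a gene name.

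The 14570 genes with FPKM 1 or more in 3 or more of 9 libraries were fitted with edgeR 4.0.16 (R 4.3.3; TMM, quasi-likelihood, a term for group, 1 model for the 9 libraries, two-sided), with Benjamini-Hochberg adjustment over all genes tested and a threshold of 0.05. The SE is the log2 fold change divided by the root of the quasi-F. The biological coefficient of variation came to 0.288, with 2.47 prior degrees of freedom. CPM values are TMM-scaled. Alternatives were other size factors, DESeq2 1.42.0, limma 3.58.1 on log2(FPKM+1), no filter, 2 groups only, a replicate block, a length offset (a lowess trend per library) and leaving out each library. Leaving out a library from the 2-group fit and adding the length offset to it were chosen after seeing the data. The scripts were tested on simulated data.

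Values in every library are given for genes past the threshold in a 9-library or 2-group fit, for those with the smallest p in BdE against BP, up to 16, and for at least 2 genes of each role; values of Acat2, Insig2, Stard4 and Insl3, and the Leydig sum without Insl3, were added after they were seen. The genes and lists were chosen with earlier results of these data known. Counts of 0 allow up to 3 counts, for counting error only.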

Additional observations from a re-analysis of the deposited data

How the results depend on the processing

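In BdE against BP the number of all genes past the threshold was 1 in the 9-library edgeR fit, 385 with DESeq2, 3 without the filter, 3078 with 2 groups only, 2647 with 2 groups and the length offset, 2 with the length offset, 2 with limma, 0 with the replicate block and 0 with the block and the length offset; leaving out 1 library gave 0 to 3257. Of the 31 genes, 9 passed with 2 groups only, 6 with 2 groups and the length offset, and 0 to 9 with a library left out; within the 2-group fit, leaving out 1 library gave 3 to 19. In BE against BP the count of all genes was 2, against 62 with DESeq2, 1 with limma and 0 with 2 groups only, with 2 groups and the length offset, with the replicate block or with the block and the length offset, and 0 to 4351 with a library left out (0 to 16 of the 31 genes). In BdE against BE it was 1, against 26 with DESeq2, 2 without the filter and 0 with 2 groups only, the replicate block or the block and the length offset, and 0 to 6 with a library left out. The cause of these differences was not tested.

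The median log2 fold change of the 31 genes kept its sign in BdE against BP (-0.56 to -0.41, and -0.69 to -0.32 with a library left out) and in BE against BP (-0.52 to -0.32, and -0.69 to -0.24). In BdE against BE it lay between -0.14 and -0.03, turned to 0.22 without BE 6, and was between -0.26 and 0.22 over the libraries left out. For the 17 genes with a fold change by the naming rule, 0 of 612 values under the alternatives changed sign and 36 newly passed the threshold, 21 of them without BE 6. Most of the 17 were chosen by their p-values in these data, and the alternatives reuse the same libraries. Their stable sign follows in part from that choice and is a description only. No label pairs the replicate numbers. Residuals of libraries with the same number correlated between -0.10 and 0.21, and those with different numbers between -0.17 and 0.18. These values cannot decide whether the numbers mark pairs or a shared batch. With 3 libraries a group and 1 library apart from its group, calls depend on which libraries enter the fit.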
